A study of Rattus norvegicus with 4 samples.

Results

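The 9 genes described here code for receptors and ligands of a pair of families of secreted neurotrophic factors. They are the neurotrophin receptors Ngfr, Ntrk2 and Ntrk3, the neurotrophin Bdnf, the glial cell line-derived neurotrophic factor Gdnf, the GDNF family coreceptors Gfra1, Gfra2 and Gfra3, and the signalling receptor Ret. They were chosen by name, with their values on these arrays already known, and were found through the accessions of their probes: 9 of 8927 named genes, and 16 of 40758 probes. All levels and differences of these genes are therefore a description, without a test.

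The study compared 4 rat cell samples, each on 1 Agilent array hybridised with Cy3-labelled RNA. The groups were neurons derived from olfactory bulb stem cells (OB neurons), neurons derived from hippocampal stem cells (HPC neurons), neural stem cells of the olfactory bulb (OB stem cells) and neural stem cells of the hippocampus (HPC stem cells). All cells came from rats of the strain labelled fisher 344, the series title calls the tissue adult, and no gene alteration or drug is named in the labels. Each array held the mixed total RNA of 3 independent experiments, so differences between those experiments cannot be seen. Age, sex, passage number and the way the neurons were made are not given in the sources used here.

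Neurotrophins such as BDNF bind Trk receptor tyrosine kinases (TrkB, coded by Ntrk2, and TrkC, coded by Ntrk3) and also share the p75 receptor (coded by Ngfr), which has no kinase of its own and can alter Trk signalling or signal cell death. GDNF and its relatives bind coreceptors anchored in the membrane by a lipid (the GFRα proteins), and the complex then activates the kinase RET. In the adult brain BDNF and TrkB act on newborn hippocampal neurons and on synapses, and the p75 receptor is widely used to recognise olfactory ensheathing cells, the glia that wrap olfactory axons.

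Levels are given as scaled signal, a probe's background-subtracted fluorescence as a percentage of the 75th-percentile signal of its array, so that 100 is the level of that percentile. That percentile lay at a signal of 725 on the OB neuron array, 805 on the HPC neuron array, 816 on the OB stem cell array and 487 on the HPC stem cell array. Between 60.2% and 74.0% of probes were well above background, and the lowest such signal was 1.17% to 2.35% on the scaled axis. Differences are log2 values, called at 2-fold or more. Where a probe was not well above background on 1 side, the difference was taken against the lowest signal well above background on that array, or the probe's own signal if higher, and is written as "at least". With 1 array per group there is no replicate check, and the number of arrays limits the precision. Both neuron arrays lay on 1 slide and both stem cell arrays on the other, so cell state and slide cannot be told apart. OB and HPC arrays of the same state shared a slide. The labels were checked against 15 neuron markers. Their summed scaled signal was 709 on the OB neuron array and 1719 on the HPC neuron array. It was 9884 on the OB stem cell array and 14494 on the HPC stem cell array, mostly from Uchl1 (4709 and 8629) and Mapt. By gene, 3 were called higher and 9 lower in OB neurons than in OB stem cells, and 2 and 7 in hippocampal cells. Over all genes 26.9% were higher and 20.0% lower in OB cells, and 21.9% and 26.8% in hippocampal cells. Among the higher ones, Snap25 was higher by 3.08 in OB and 3.97 in hippocampal cells. The tau gene Mapt had scaled signals of 34.6 and 328 on the OB and HPC neuron arrays, against 3001 and 4029 on the OB and HPC stem cell arrays, whereas the growth cone gene Stmn2 had 51.4 and 134 against levels not well above background. The neuron label is kept below as the name of the sample only.

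**Figure D1:**
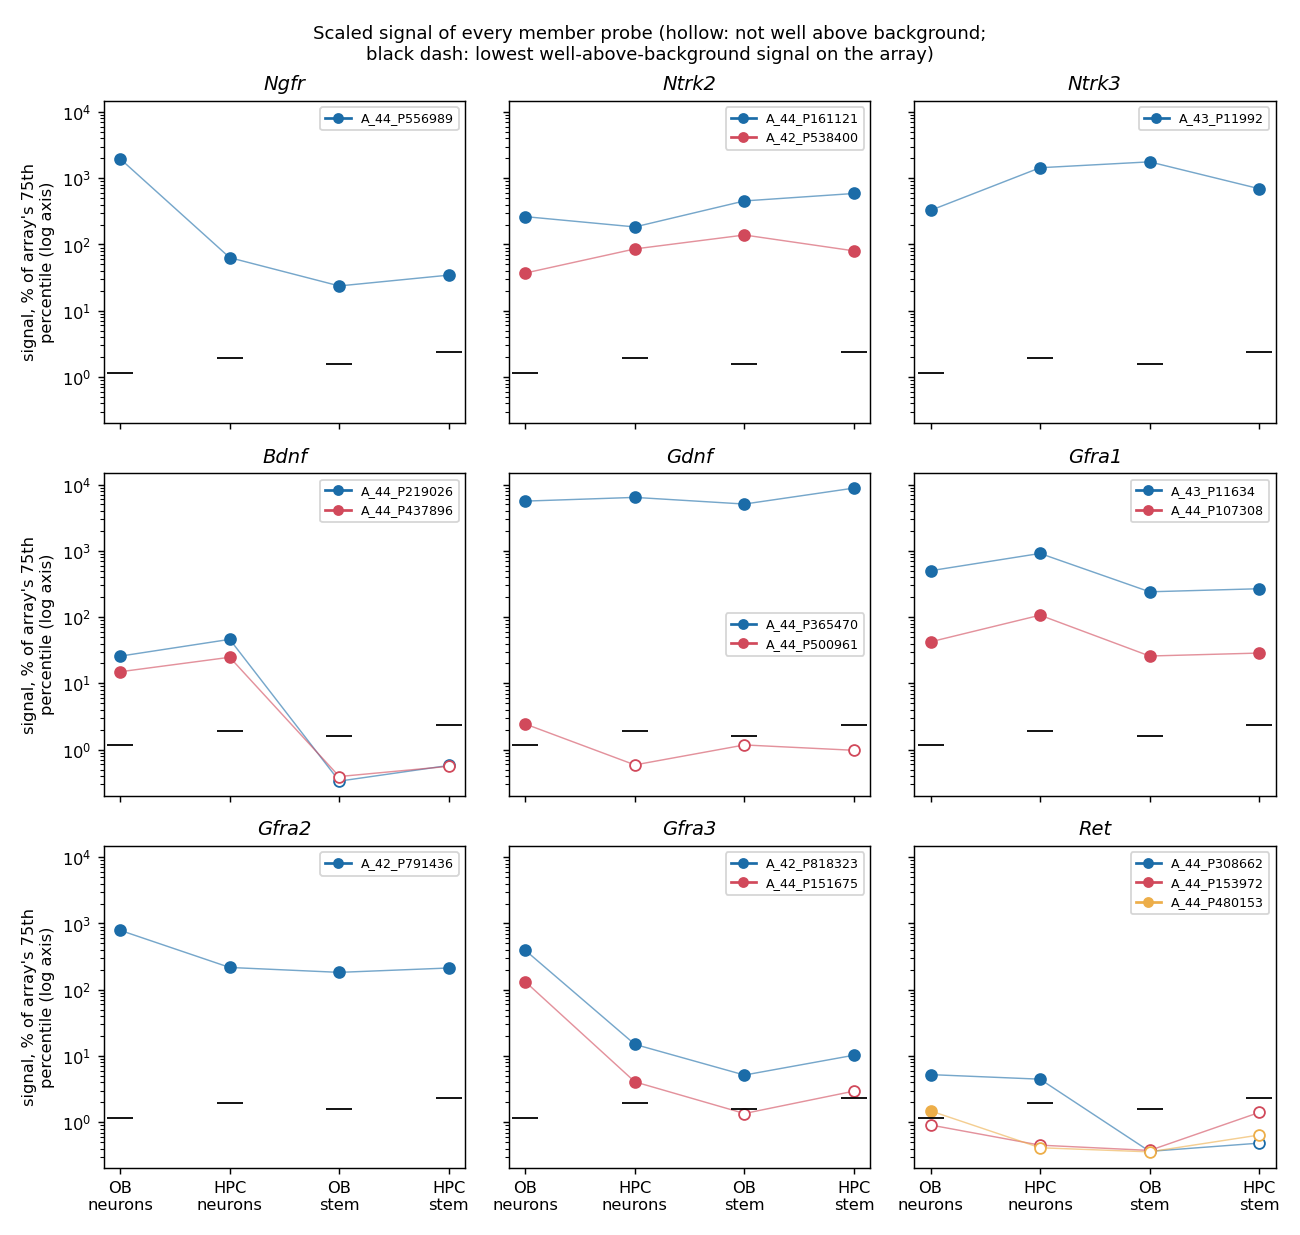
Scaled signal (percent of the array's 75th-percentile signal, log axis) of all 16 probes of the 9 genes on the 4 arrays. Points are single arrays, joined by lines only to guide the eye, hollow points were not well above background, and black dashes mark the lowest well-above-background signal. Ngfr reached 1961 and Gfra3 393 on the OB neuron array, both far above the other 3 arrays, while Bdnf was hollow on both stem cell arrays.

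Among the receptors, Ngfr and Gfra3 stood far above their other levels on the OB neuron array. Ngfr, the p75 receptor gene (probe A_44_P556989, accession NM_012610), had a scaled signal of 1961 in OB neurons, 63.3 in HPC neurons, 23.7 in OB stem cells and 34.5 in HPC stem cells. OB neurons were thus high and the other 3 samples low. The level in OB neurons was 82.6-fold that of OB stem cells (log2 6.37) and 31.0-fold that of HPC neurons (log2 4.95). In hippocampal cells, neurons exceeded stem cells by 0.88, and OB stem cells differed from HPC stem cells by -0.54, so neither reached 2-fold, although the hippocampal difference was 1.29 with spike-in scaling. The probe was printed on 10 spots, which spanned 1831 to 2090 in OB neurons, 58.7 to 67.2 in HPC neurons, 22.4 to 25.1 in OB stem cells and 33.0 to 37.4 in HPC stem cells. Those spot ranges did not overlap between any pair of arrays, but spots of an array share 1 RNA pool and show scanner and printing noise only. In RNA from whole cultures, fewer cells of a type and less RNA per cell cannot be told apart, here and for every gene below.

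**Figure D2:**
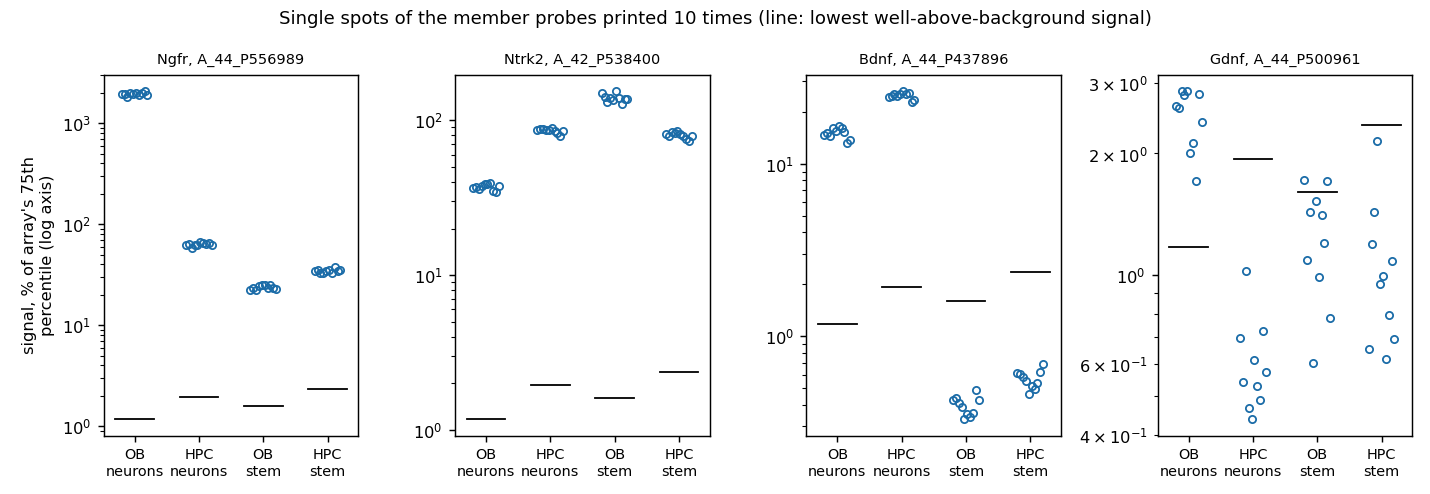
Scaled signal (log axis, a separate range in each panel) of the single spots of the 4 probes printed 10 times, by array. Each circle is 1 spot and the line is the lowest well-above-background signal of that array. The Ngfr spots of OB neurons lie between 1831 and 2090, while the Gdnf probe A_44_P500961 scatters around or below the line on 3 arrays.

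Gfra3 codes for the coreceptor that binds artemin. Its brighter probe, A_42_P818323 (accession NM_053398), had a scaled signal of 393 in OB neurons, 15.0 in HPC neurons, 5.17 in OB stem cells and 10.3 in HPC stem cells. OB neurons again held the high level, 76.0-fold that of OB stem cells (log2 6.25) and 26.2-fold that of HPC neurons (log2 4.71). In hippocampal cells the neurons exceeded the stem cells by 0.54, and the log2 difference of OB from HPC stem cells was -1.0, which lay just short of a call before rounding. The other Gfra3 probe, A_44_P151675, gave 132 in OB neurons and 4.08 in HPC neurons and was not well above background in either stem cell sample. With it, OB neurons were at least 82.6-fold above OB stem cells (log2 6.37) and 32.4-fold above HPC neurons (log2 5.02), so the probes gave the same order.

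Gfra2, whose protein binds neurturin, followed the same order in OB cells at smaller size. Its probe A_42_P791436 (NM_012750) had a scaled signal of 788 in OB neurons, 217 in HPC neurons, 183 in OB stem cells and 213 in HPC stem cells. OB neurons were high and the other 3 samples lay close together. The level in OB neurons was 4.30-fold that of OB stem cells (log2 2.10) and 3.64-fold that of HPC neurons (log2 1.86), while hippocampal neurons and stem cells differed by 0.02.

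Gfra1, the coreceptor gene for GDNF itself, was highest in HPC neurons instead. Its brighter probe, A_43_P11634 (NM_012959), had a scaled signal of 501 in OB neurons, 913 in HPC neurons, 241 in OB stem cells and 268 in HPC stem cells. Both neuron samples were above both stem cell samples. HPC neurons were 3.41-fold above HPC stem cells (log2 1.77), and OB neurons 2.08-fold above OB stem cells (log2 1.05). The dimmer probe, A_44_P107308, had 42.4 in OB neurons, 107 in HPC neurons, 25.9 in OB stem cells and 28.7 in HPC stem cells. It gave 1.90 for the hippocampal and 0.71 for the OB difference, so the OB call rested on the choice of probe, and with spike-in scaling the brighter probe gave 0.43. OB neurons differed from HPC neurons by -0.86 with the brighter and -1.34 with the dimmer probe.

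Ret, the kinase that the GFRα proteins activate, was near the limit of detection. Its brightest probe, A_44_P308662 (NM_012643), had a scaled signal of 5.25 in OB neurons and 4.48 in HPC neurons and was not well above background in OB stem cells (0.365) or HPC stem cells (0.486). Both neuron samples thus had measurable signal and neither stem cell sample did. The differences were at least 1.72 in OB cells and at least 0.93 in hippocampal cells, the OB bound being 0.95 after quantile normalization, and OB neurons differed from HPC neurons by 0.23. Probe A_44_P480153 was well above background in OB neurons alone, at 1.49, and probe A_44_P153972 on no array. The Ret difference therefore rests on 1 probe with signals of 38.1 in OB neurons and 36.1 in HPC neurons, 4.47 and 2.31 times the lowest well-above-background signal of those arrays.

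The 250 bases before the start of a transcript were taken from RefSeq (build GRCr8), where 5 of the 9 genes had such windows: Gfra1, Gfra3, Ret, Gdnf and Bdnf, the last with 6. The search covered a GC box (GGGCGG), the core of the cAMP response element (TGACG) and an AP-1 site (TGANTCA) on both strands, and no matches overlap in the windows shown. The windows are not linked to the array probes, whose design build was rn4 per the file headers. The following 3 are shown because Gfra3, Gfra1 and Bdnf are the genes with the largest differences between samples or with calls in both sources, with the matches in capitals (a match on the other strand reads CCGCCC or CGTCA).
Gfra3, chr18:26600226-26600475, minus strand: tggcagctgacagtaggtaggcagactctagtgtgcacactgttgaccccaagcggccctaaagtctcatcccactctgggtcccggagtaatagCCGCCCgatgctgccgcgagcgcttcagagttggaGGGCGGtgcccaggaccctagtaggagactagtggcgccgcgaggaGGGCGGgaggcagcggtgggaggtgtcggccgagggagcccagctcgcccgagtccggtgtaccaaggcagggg
Gfra1, chr1:267555812-267556061, minus strand: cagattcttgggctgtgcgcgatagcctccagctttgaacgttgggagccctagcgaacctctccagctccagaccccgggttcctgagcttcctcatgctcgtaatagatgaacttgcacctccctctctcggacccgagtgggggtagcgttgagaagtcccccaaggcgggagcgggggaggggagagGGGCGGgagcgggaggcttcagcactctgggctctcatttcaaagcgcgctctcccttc
Bdnf, chr3:116637608-116637857, plus strand: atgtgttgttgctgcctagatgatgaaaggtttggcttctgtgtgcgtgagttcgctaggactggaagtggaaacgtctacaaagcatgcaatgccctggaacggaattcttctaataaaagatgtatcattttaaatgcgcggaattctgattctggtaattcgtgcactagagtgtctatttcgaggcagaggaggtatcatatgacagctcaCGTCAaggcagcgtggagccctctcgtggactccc
The Gfra3 window held 3 GC boxes and the Gfra1 window 1, and 30.5% of all 33469 windows held at least 1. The Bdnf window shown held 1 cAMP response element core and was chosen for it, as the only 1 of the 6 Bdnf windows with this match. The Gdnf window held 1 too, and 18.2% of all windows held at least 1, a share per window that is not one per gene. An AP-1 site, found in 6.34% of all windows, appeared in 1 other of the Bdnf windows, beside 2 GC boxes. The Ret window held none of these letters and was 72.8% G and C, against a median of 51.2% over all windows. A match describes these letters in this window only.

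The Trk receptor genes did not follow Ngfr. Ntrk3, the TrkC gene (probe A_43_P11992, NM_019248), had a scaled signal of 327 in OB neurons, 1438 in HPC neurons, 1764 in OB stem cells and 694 in HPC stem cells. OB neurons were lowest, while HPC neurons and OB stem cells were both high. OB neurons were 5.39-fold below OB stem cells (log2 -2.43) and 4.39-fold below HPC neurons (log2 -2.13), while HPC neurons were 2.07-fold above HPC stem cells (log2 1.05, or 0.59 with median scaling). OB stem cells were 2.54-fold above HPC stem cells (log2 1.35). Ntrk3 was among 9 genes, 0.137% of the 6567 measured in both sources, called higher in hippocampal neurons and lower in OB neurons than in their stem cells.

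Ntrk2, the TrkB gene, was read by a pair of probes with the same accession (NM_012731) that gave different orders of the samples. With the brighter probe, A_44_P161121, the scaled signal was 263 in OB neurons, 184 in HPC neurons, 454 in OB stem cells and 588 in HPC stem cells. Both neuron samples were below both stem cell samples, by -0.79 in OB cells and -1.68 in hippocampal cells. With the other probe, A_42_P538400, it was 37.1 in OB neurons, 85.7 in HPC neurons, 139 in OB stem cells and 80.1 in HPC stem cells. OB neurons were then lowest and 3.75-fold below OB stem cells (log2 -1.91), while the hippocampal samples differed by 0.10. Which of the Ntrk2 transcripts each probe binds was not tested.

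Of the ligands, Bdnf was measurable in neurons only. Its brighter probe, A_44_P219026 (NM_012513), had a scaled signal of 25.8 in OB neurons and 46.2 in HPC neurons, against 0.336 in OB stem cells and 0.579 in HPC stem cells, where it was not well above background. Neurons exceeded stem cells by at least 16.1-fold in OB cells (log2 4.01) and at least 19.7-fold in hippocampal cells (log2 4.30). With normexp background correction, which adds an offset, the differences were 2.23 in OB cells and 2.25 in hippocampal cells, still above 2-fold. The second probe, A_44_P437896, had 15.0 in OB neurons and 24.8 in HPC neurons and was below its background limit in both stem cell samples, with differences of at least 3.23 and at least 3.40. OB neurons lay below HPC neurons by -0.84 with the first and -0.73 with the second probe, under 2-fold in each.

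Gdnf was read at opposite ends of the range by its probes. A_44_P365470 (NM_019139) had a scaled signal of 5622 in OB neurons, 6397 in HPC neurons, 5077 in OB stem cells and 8839 in HPC stem cells. All 4 samples were high, and no difference reached 2-fold: 0.15 in OB cells, -0.47 in hippocampal cells, -0.19 between the neurons and -0.80 between the stem cells. A_44_P500961 carries the same accession and was well above background in OB neurons alone, at 2.44, which is 2.08 times the lowest well-above-background signal there. Its 10 spots spanned 1.71 to 2.86 in OB neurons, against 0.437 to 1.02 in HPC neurons, 0.603 to 1.72 in OB stem cells and 0.617 to 2.15 in HPC stem cells. OB neurons exceeded OB stem cells by at least 0.61 and HPC neurons by at least 0.33 with this probe. Which probe reports Gdnf RNA was not tested, so the level of the gene is uncertain, and the counts and distances below that include Gdnf use the brighter probe and hold for that probe only.

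Over the 9 genes, taking the probe with the highest mean level for each, 6 were called higher and 1 lower in OB neurons than in OB stem cells, where 26.9% of 7022 genes were higher and 20.0% lower. In hippocampal neurons against stem cells 3 were higher and 1 lower, where 21.9% of 6656 genes were higher and 26.8% lower. Between OB and HPC neurons 3 were higher and 1 lower, where the shares of 6999 genes were 7.66% and 8.0%. Between OB and HPC stem cells 1 of the 7 measured was higher and 0 lower, where the shares of 6026 genes were 4.17% and 6.97%. The median difference of the 9 genes was 1.72 in OB cells, 0.88 in hippocampal cells and 0.23 between neurons, beside 0.08, -0.32 and -0.01 over all genes. Between stem cells it was -0.37 for the 7 genes and -0.43 for all. The median of 1.72 is the value of Ret, an "at least" difference that spanned 0.00 to 3.85 over the processing alternatives. Bdnf and Gfra1 were higher in both sources, as were 18.5% of 6567 genes, and 0 of the 9 was lower in both, as were 16.8% of those genes. Nothing is read from these shares, since the genes were chosen with the same contrasts known. Scaling to spike-in probes moved the shares of all genes called higher and lower to 19.0% and 36.0% in OB cells, 28.9% and 15.1% in hippocampal cells, 18.3% and 1.19% between stem cells and 6.02% and 10.3% between neurons, and scaling to the median gave 19.7% and 33.7% in OB cells and 17.3% and 42.9% in hippocampal cells.

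**Figure D3:**
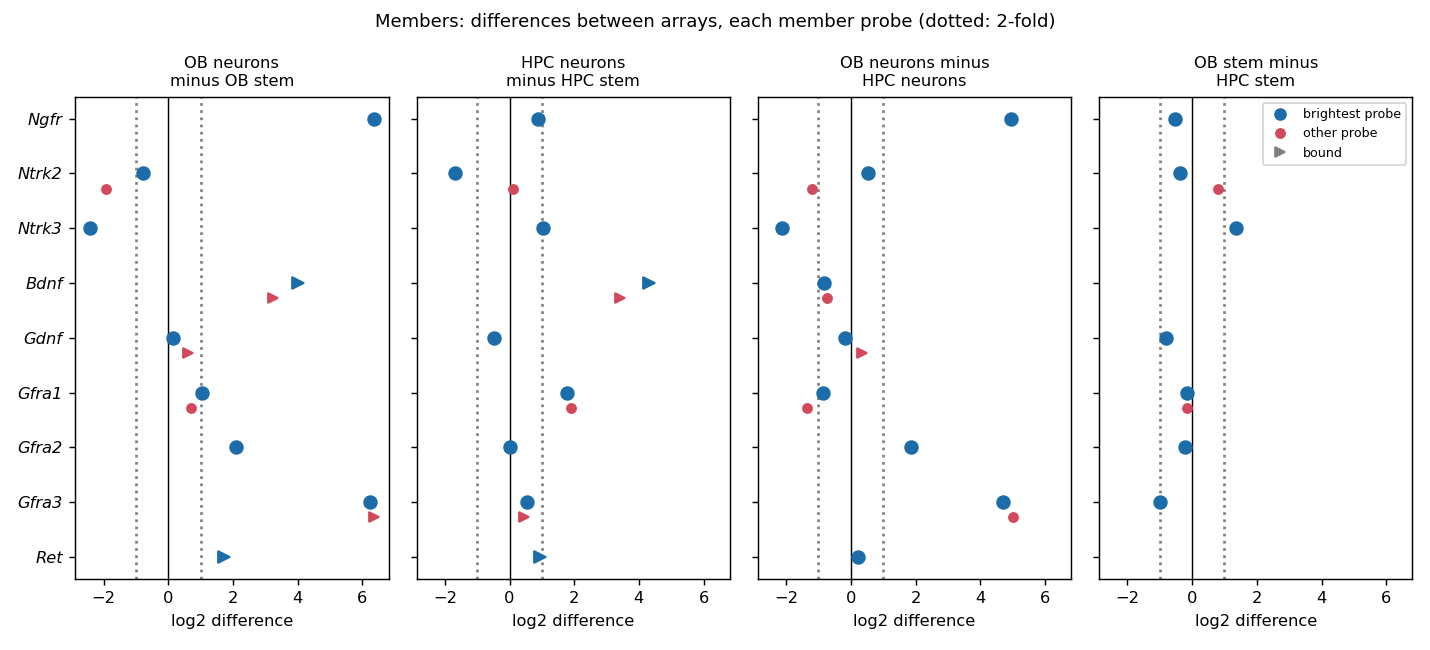
Log2 difference of each probe in 4 comparisons: OB neurons minus OB stem cells, HPC neurons minus HPC stem cells, OB neurons minus HPC neurons, and OB stem cells minus HPC stem cells. Large blue points are the brightest probe of a gene, small red points the others, triangles are bounds, and dotted lines mark 2-fold. Ngfr and Gfra3 lie at 6.37 and 6.25 in the OB comparison and at 0.88 and 0.54 in the hippocampal one; probes without a measurable difference in a comparison have no point.

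The difference of the state changes (the OB change minus the HPC change) was largest for Gfra3 at 5.71 and Ngfr at 5.49, followed by Gfra2 at 2.08. Ntrk3 lay on the other side at -3.48, and the other 3 of the 7 genes measured on all arrays were Ntrk2 at 0.89, Gdnf at 0.61 and Gfra1 at -0.72. At 4-fold, 4 of these 7 genes were called, as were 4.13% of 5495 genes, whose median was 0.34. Of the 4, 3 lay on the side of a higher OB change, where 2.55% of genes lay, and 1 on the other, where 1.58% lay. The OB change and the difference between neuron samples share the OB neuron array, so a high level there raises both.

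The likeness of patterns was measured over the 4 arrays as the Euclidean distance between log2 levels, each gene centred on its own mean. The genes compared were well above background on all arrays and had a range over them of at least 1 log2 unit. Ngfr lay 0.43 from Gfra3, which was the nearest of 3627 genes to it, and Ngfr was likewise the nearest to Gfra3. The next were Entpd2, an ectonucleotidase, at 0.80 and Pck1, an enzyme of glucose synthesis, at 0.99 from Ngfr. Entpd2 had scaled signals of 2249 in OB neurons, 45.3 in HPC neurons, 12.5 in OB stem cells and 24.9 in HPC stem cells, and Pck1 was 5.49 higher in OB neurons than in OB stem cells and 3.56 higher than in HPC neurons. Entpd2 and Pck1 were picked by their distance from Ngfr, so their high level in OB neurons follows from that choice. Gfra2 was closest to Col5a3, Aco1 and Cryab (0.27 to 0.32), and lay 3.37 from Ngfr and 3.13 from Gfra3. Gfra1 was closest to Syne4, Gdf10 and Tgif1 (0.19 to 0.25). Ntrk2, by its brighter probe, was closest to Bcat1, Haus4 and Haus1 (0.09 to 0.15), and Gdnf to Pih1d1, Slc25a38 and Tbc1d20 (0.16 to 0.19). The range of Gdnf itself was 0.80, so genes as flat as Gdnf were left out of its comparison. Ntrk3 had no near neighbour: Rab27b, Mtus1 and Mns1 lay 0.81 to 0.87 away. With 4 arrays such distances describe these samples only.

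Of 89 other genes listed for the pathways, 59 had a named probe. In OB cells 18 of 57 measured were higher and 3 lower in neurons, and in hippocampal cells 15 were higher and 9 lower. Over all genes 26.9% were higher and 20.0% lower in OB cells, and 21.9% higher and 26.8% lower in hippocampal cells, and nothing is read from the list's counts. Among the neurotrophins and their receptors, Ntf3, a ligand of TrkC, had scaled signals of 88.0 in OB neurons and 23.6 in HPC neurons and was not well above background in either stem cell sample. It was higher in neurons by at least 5.78 in OB cells and at least 3.33 in hippocampal cells, and OB neurons exceeded HPC neurons by 1.90. Ntf4, a TrkB ligand, differed by -0.06 in OB and -0.56 in hippocampal cells. Rtn4r, the Nogo receptor that forms a complex with p75, was lower in hippocampal neurons by -1.21 and differed by 0.13 in OB cells. The sortilin family had no named probe.

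In the GDNF family, 4 of 7 genes were higher and 0 lower in OB neurons than in OB stem cells, beside 26.9% and 20.0% of all genes. In hippocampal cells 1 was higher and 1 lower, beside 21.9% and 26.8% of all genes. The 4 were Gdf15, Gfra4 (a bound), Artn and Sdc3 (1.33), and nothing is read from these counts. Artn, the ligand of the Gfra3 protein, had 58.5 in OB neurons, 31.8 in HPC neurons, 21.1 in OB stem cells and 38.9 in HPC stem cells, with differences of 1.47 in OB cells and -0.29 in hippocampal cells. Nrtn, the ligand of the Gfra2 protein, had 170 in OB neurons, 169 in HPC neurons, 187 in OB stem cells and 495 in HPC stem cells, so it differed by -0.14 in OB cells and -1.55 in hippocampal cells. Gfra4, the persephin coreceptor gene, was higher by at least 2.11 in OB neurons, and its ligand gene Pspn differed by 0.39. Gdf15, a stress-induced relative of the family, had 1162 in OB neurons and 2025 in HPC neurons, against 14.6 in OB stem cells and 66.1 in HPC stem cells (6.31 and 4.94). Ncam1, an alternative GDNF receptor, differed by 0.49 in OB and 0.99 in hippocampal cells.

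Of the genes listed for neurotrophin processing, 6 of 8 measured were higher in neurons in OB cells and 5 of 8 in hippocampal cells, with 1 lower in each. Over all genes 26.9% were higher and 20.0% lower in OB cells, and 21.9% and 26.8% in hippocampal cells. The same shares stand beside the counts of adaptors and p75 partners below. Mmp9 was higher by at least 5.78 in OB cells and at least 2.86 in hippocampal cells, Mmp3 by at least 5.22 and at least 4.97, and the convertase Furin by 2.07 and 1.26. Pcsk6, a convertase too, had 58.9 in OB neurons and 251 in HPC neurons, against 950 in OB stem cells and 1176 in HPC stem cells (-4.01 and -2.23). Of 18 adaptors that carry the receptor signal, 1 was higher (Shc1, 1.97) and 1 lower (Pik3r1, -2.58) in OB neurons than in OB stem cells, with a median of -0.49. In hippocampal cells 2 were higher (Shc1 by 1.71 and Map2k1 by 1.04) and 3 lower (Src by -1.33, Sh2b2 by -1.17 and Pik3r1 by -1.0), with a median of -0.80. Between the neuron samples 0 of the 18 reached 2-fold. Of 10 p75 partners, 1 was higher and 1 lower in OB neurons than in OB stem cells (median -0.06), and 2 were higher and 2 lower in hippocampal neurons (median -0.46). Adam17, a sheddase that can cleave p75, was higher by 1.23 in OB and 1.32 in hippocampal cells, and Bex1 by 2.27 in hippocampal cells. Zfp110 was lower in OB neurons by -1.19, and Arhgdia and Prdm4 in hippocampal neurons by -1.26 and -1.14. Genes that neurotrophin signalling can induce were higher in neurons in 5 of 10 cases in OB cells, with 0 lower, and in 4 of 10 in hippocampal cells, with 1 lower, beside 26.9% and 21.9% of all genes higher. Egr1 had 101 in OB neurons, 272 in HPC neurons, 25.3 in OB stem cells and 26.9 in HPC stem cells (2.0 and 3.34). Nptx2, Arc, Egr1 and Egr2 were all lower in OB than in HPC neurons, by -3.64, -1.50, -1.43 and -1.46, with 0 of 10 higher. Over all genes 7.66% were higher and 8.0% lower in OB than in HPC neurons.

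**Figure D4:**
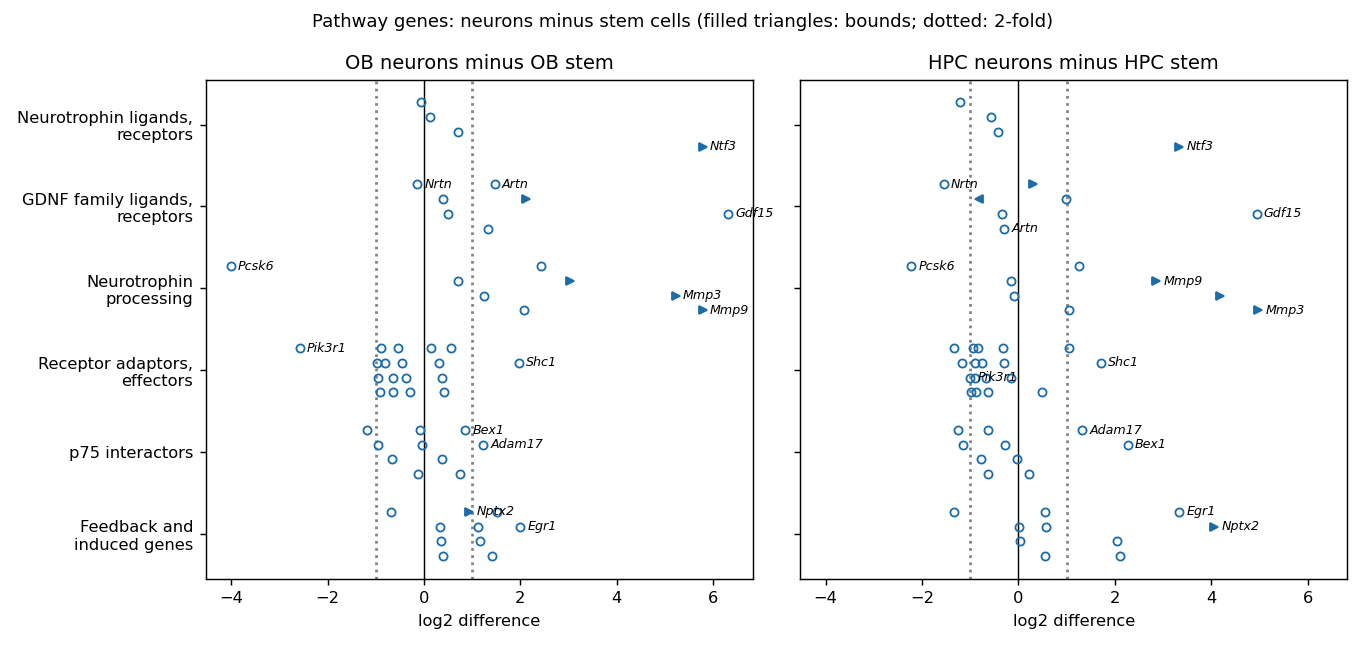
Log2 difference of the measured pathway genes, in 6 groups, for OB neurons minus OB stem cells (left) and HPC neurons minus HPC stem cells (right). Each point is 1 gene by its brightest probe, filled triangles are bounds and dotted lines mark 2-fold. Ntf3 and the metalloproteinases lie far to the right in both panels and Pcsk6 far to the left.

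Marker lists of other cell types were set beside the high levels of Ngfr and Gfra3 in OB neurons, and no list sum had the pattern of these genes, high in OB neurons and low in the other 3 samples, although single markers did. Of 12 olfactory ensheathing and Schwann cell markers with a named probe, 5 were higher and 0 lower in OB than in HPC neurons, with a median difference of 0.93. Over all genes 7.66% were higher and 8.0% lower. The summed scaled signal of the 12 was 14163 in OB neurons, 7301 in HPC neurons, 12487 in OB stem cells and 19430 in HPC stem cells. L1cam, an adhesion gene of neurons as well as these glia, had 510 in OB neurons, 4.65 in HPC neurons, 3.59 in OB stem cells and 3.95 in HPC stem cells. Cdh19, a cadherin of these glia, had 18.3 in OB neurons, was not well above background in HPC neurons, and had 8.31 in OB stem cells and 4.6 in HPC stem cells. Npy, the marker of this list with the largest difference, had 7248 in OB neurons, 2932 in HPC neurons, 40.7 in OB stem cells and 955 in HPC stem cells. Sox10, a transcription factor of these glia, had 1877 in OB neurons and 1973 in HPC neurons against 8860 in OB stem cells and 14903 in HPC stem cells. It made up most of the list's sums in stem cells. Against OB stem cells, 6 of the 12 were higher and 2 lower in OB neurons, beside 26.9% and 20.0% of all genes. All 12 markers of these glia were well above background in OB neurons, OB stem cells and HPC stem cells, and 11 in HPC neurons. Foxd3, Frzb, Scn7a and Dhh had no named probe. Astrocyte markers were higher in 9 of 11 cases in both neuron samples than in their stem cells. Their sums were 15067 in OB neurons, 14600 in HPC neurons, 3320 in OB stem cells and 4327 in HPC stem cells. Aldoc and Fgfr3 were lower in OB neurons than in OB stem cells, by -2.24 each. By its brightest probe, Aqp4 had 311 in OB neurons and 15.3 in HPC neurons and was not well above background in stem cells. Its 4 measured probes ranged from 0.31 to 4.35 for OB minus HPC neurons, and from 0.58 to 7.60 for OB neurons minus OB stem cells. All 11 pericyte and fibroblast markers were higher in both neuron samples, with sums of 55463 in OB neurons and 39536 in HPC neurons, against 32.9 in OB stem cells and 50.8 in HPC stem cells. Over all genes, 18.5% were higher in both neuron samples than in their stem cells. Microglia markers summed to 710 in OB neurons and 678 in HPC neurons, against 83.0 in OB stem cells and 80.3 in HPC stem cells. Among them, Itgam and Cx3cr1 were well above background on no array. The summed signal of the oligodendrocyte markers, like Sox10, was highest in stem cells. It was 2576 in OB neurons and 1397 in HPC neurons, against 11327 in OB stem cells and 15642 in HPC stem cells. Olig1 made up most of the stem cell sums, with 9645 in OB and 12983 in HPC stem cells. By gene, 2 of 6 measured were higher and 3 lower in OB neurons than in OB stem cells, beside 26.9% and 20.0% of all genes. Mag had 30.4 in OB neurons and was not well above background in the other samples. The part of these cells in the levels of the 9 genes was not tested.

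**Figure D5:**
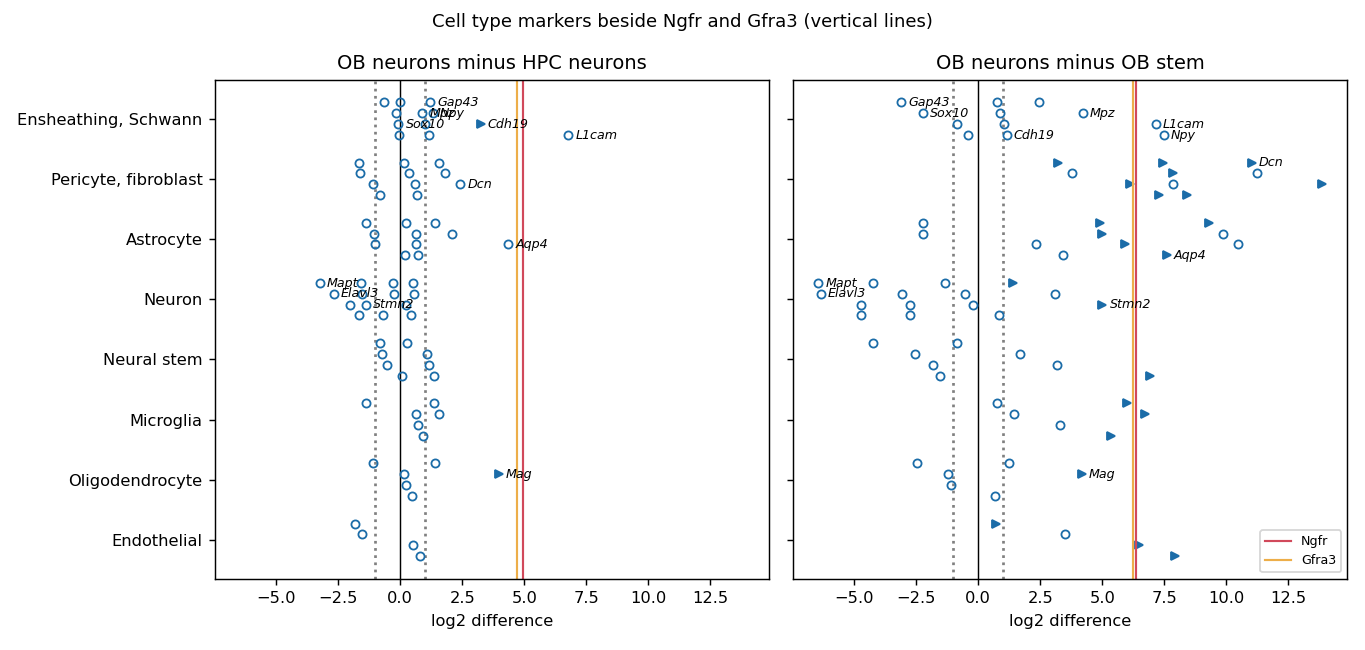
Log2 differences of cell type markers, in 8 lists, for OB neurons minus HPC neurons (left) and OB neurons minus OB stem cells (right), with the differences of Ngfr and Gfra3 as vertical lines. Each point is 1 gene, filled triangles are bounds and dotted lines mark 2-fold. On the left, L1cam at 6.78 lies beyond both lines (4.95 and 4.71), while Sox10 at -0.07 lies near 0.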

How the data were processed

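Each of the 4 groups was 1 array of RNA pooled from 3 experiments, grouped by the labelled cell type. The deposited scanner files give 1 background-subtracted, spatially detrended intensity per spot, written by Agilent Feature Extraction 10.5.1.1 per the file headers and, for the version, the submitters' processing notes. The authors' series table held the same values (largest difference 0). Here log2 processed intensity was centred on each array's 75th percentile over non-control probes. Of 41012 such probes, 254 with outlier spots only on an array were left out, and spots of a probe were averaged. No spot was saturated. Accessions were matched to the RefSeq gene table (GRCr8, for names only), giving 10783 probes with 1 symbol, 29975 with none and 8927 genes. For 1597 genes with several probes the one with the highest mean was used. A gene entered a comparison when well above background on at least 1 of its arrays.

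Members, lists and thresholds were chosen with earlier results of these data known. The text names all 9 members with every probe, up to 8 genes per pathway list by largest difference, ligands and receptors of the members, up to 5 genes per marker list with defining markers, and the 3 genes nearest each member measured on all arrays. No test was possible with 1 array per group. The calculations used Python 3.11.15, pandas 2.3.3, R 4.3.3 and limma 3.58.1, and were tested on simulated data. Alternatives were normexp correction with an offset of 50, quantile normalization, median and spike-in scaling, other filters, probe rules and thresholds, and the authors' table. Some genes of the pathway lists are not reported here.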

Additional observations from a re-analysis of the deposited data

Results flagged for a closer look

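Of the 16 probes of the 9 genes, 2 had state changes of opposite sign that differed by 4-fold or more between the sources. Over all genes, 4.13% of 5495 had state changes that differed by 4-fold or more, whatever their signs. Ntrk3 (probe A_43_P11992) was lower in OB neurons than in OB stem cells by -2.43 and higher in HPC neurons than in HPC stem cells by 1.05, so the OB change minus the HPC change was -3.48. For the Ntrk2 probe A_42_P538400 the changes were -1.91 in OB cells and 0.10 in hippocampal cells, a difference of -2.0; the hippocampal change was far short of 2-fold, while the brighter Ntrk2 probe gave 0.89. The brighter Gdnf probe had opposite signs too (0.15 in OB cells and -0.47 in hippocampal cells), at a smaller difference of 0.61. With 1 array per group the difference was not tested for any of these probes.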

How the results depend on the processing

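Of 16 calls of the 9 genes over the 4 comparisons, 12 were kept under each alternative that gave a value, other thresholds aside. The other 4 were lost under at least 1, and the cause was not tested. Some alternatives could not change a call. The authors' table held the same values for every gene. Ngfr, Ntrk3 and Gfra2 have 1 probe, well above background on all arrays, so the probe rules and filters left their values as they were. At 4-fold, 3 of those 12 were lost as well: Gfra1 in hippocampal cells (1.77), Ntrk3 between stem cells (1.35) and Gfra2 between neurons (1.86). Ngfr in OB neurons against OB stem cells ranged from 5.75 to 6.48 and Gfra3 from 4.93 to 6.43, and against HPC neurons from 4.76 to 5.27 and from 4.19 to 5.04. Bdnf ranged from 2.23 (normexp) to 6.26 (no filter) in OB cells and from 2.25 to 6.32 in hippocampal cells. The Ntrk2 difference in hippocampal cells became -0.79 with the mean over probes and 0.10 with the dimmest measured probe of each gene, an alternative chosen after seeing the data. The Ntrk3 difference in hippocampal cells fell short of 2-fold with normexp (0.99) and median scaling (0.59). The Gfra1 difference in OB cells spanned 0.43 (spike-in scaling) to 1.21, and that of Ret 0.00 (dimmest probe) to 3.85 (no filter). Genes higher in OB neurons than OB stem cells numbered 5 in place of 6 with quantile normalization, median scaling and spike-in scaling. They numbered 4 with normexp, the filter for all 4 arrays, the mean over probes, the 4-fold threshold and the dimmest probe. Genes higher in hippocampal neurons than stem cells numbered 5 with spike-in scaling, 5 at 1.5-fold and 1 at 4-fold, in place of 3. They numbered 2 with normexp, median scaling and the filter for all 4 arrays, and 4 without a filter. Genes lower there numbered 0 with the mean over probes, at 4-fold and with the dimmest probe, in place of 1. Genes lower in OB neurons than OB stem cells numbered 2 in place of 1 with median scaling, spike-in scaling, the mean over probes, the 1.5-fold threshold and the dimmest probe. Between OB and HPC stem cells, 0 in place of 1 was higher at 4-fold, and 1, 1 and 2 in place of 0 were lower with median scaling, the mean over probes and 1.5-fold. Between OB and HPC neurons, 3, 2, 3 and 3 in place of 1 were lower with spike-in scaling, the mean over probes, 1.5-fold and the dimmest probe. The 4 genes with a 4-fold difference of state changes numbered 3 with spike-in scaling. Spike-in scaling, from 7 probes, moved the median difference of all genes to -0.49 in OB cells, 0.10 in hippocampal cells, 0.42 between stem cells and -0.20 between neurons, and median scaling to -0.41, -0.78, -0.45 and -0.11. No paired analysis was possible because each group has 1 array and the labels carry no replicate numbers. For the same reason no array could be left out. Matching by accession alone was the only matching possible here and so was not run as an alternative, and normexp used median spot signals. Bdnf and Ret in stem cells, Gdnf by its dim probe and Gfra3 by its dim probe are limited by signal over background.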
